A study of Rattus norvegicus with 6 samples.

Results

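Microtubules are built from dimers of alpha- and beta-tubulin, and the 10 genes described here encode tubulin isotypes and microtubule proteins of the glial process. They comprise the beta-tubulins Tubb4a, Tubb3, Tubb2a, Tubb2b, Tubb5 and Tubb6, the alpha-tubulins Tuba1a and Tuba4a, the polymerization-promoting protein gene Tppp and the microtubule-associated protein gene Map1b. They were chosen by gene name, with earlier results of these data known. They make up 10 of the 32883 gene entries of the count table. The cells were primary oligodendrocyte precursor cells (OPCs), purified by shaking from cerebral cortex cultures of newborn (P0) Sprague Dawley rats, each culture from the cortices of 2 pups. For the age, the culture methods give a range of postnatal days that starts at P0. The DMSO group received the solvent and the ZJU-37 group received ZJU-37, a small-molecule inhibitor of the kinase RIPK1, at 5 µM. The labels give 36 h of treatment for both groups, whereas the RNA sequencing methods give a shorter time. Poly-A RNA of 3 libraries per group was sequenced, and the comparison asks how ZJU-37 altered the OPC transcriptome. The methods call the libraries biological repeats and a figure legend calls them plate wells, so the p-values measure the spread between these libraries, which may be technical.

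Vertebrate cells draw on several genes for each partner of the tubulin dimer. The proteins are much alike and differ mostly in their acidic tails, which carry many of the modifications that guide motors and associated proteins. Some isotypes are used in nearly all cells and others mark neurons or maturing oligodendrocytes, whose branched processes and myelin sheaths are filled with microtubules that serve transport of RNA and protein. TPPP is an oligodendrocyte protein that nucleates and stabilizes such microtubules away from the cell body, and MAP1B binds microtubules in growing processes.

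With ZJU-37 the mRNAs of these genes moved in both directions. Tubb4a, the beta-tubulin of maturing oligodendrocytes, fell 3.34-fold, Tppp fell 2.32-fold and Map1b fell 1.57-fold, whereas the widely used beta-tubulin genes Tubb5 and Tubb6 rose 1.66-fold and 2.03-fold. In edgeR's quasi-likelihood test on all genes, 5 of the 10 members passed at an adjusted p-value of 0.05, 2 higher and 3 lower with ZJU-37, where 15.0% of the 14670 tested genes did so (9.43% higher and 5.58% lower). With 1 library left out, 3 to 5 members passed, and 1306 to 1927 genes in all against 2201 with all libraries. With no filter on low counts 3 members and 2091 genes in all passed. All 10 had passed the filter on low counts. Because the members were chosen with earlier results known, their counts beside those of all tested genes are descriptions. In 7 of the 10 the libraries of both groups did not overlap in CPM (the read count scaled to library size, with TMM factors), against 35.2% of all tested genes. Of these 7, 3 were higher and 4 were lower with ZJU-37, where 19.0% and 16.2% of the tested genes were. The sign of the difference was the same in all 3 same-numbered pairs of libraries for 10 of the 10, against 61.7% of all tested genes. The median log2 fold change was -0.17 over the 10 members and -0.03 over all tested genes. Libraries with the same replicate number deviated together from their group means, and a fit blocked on that number called 6 of the 10, 2 higher and 4 lower. That fit called 32.1% of the tested genes, 16.2% higher and 15.9% lower.

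**Figure D1:**
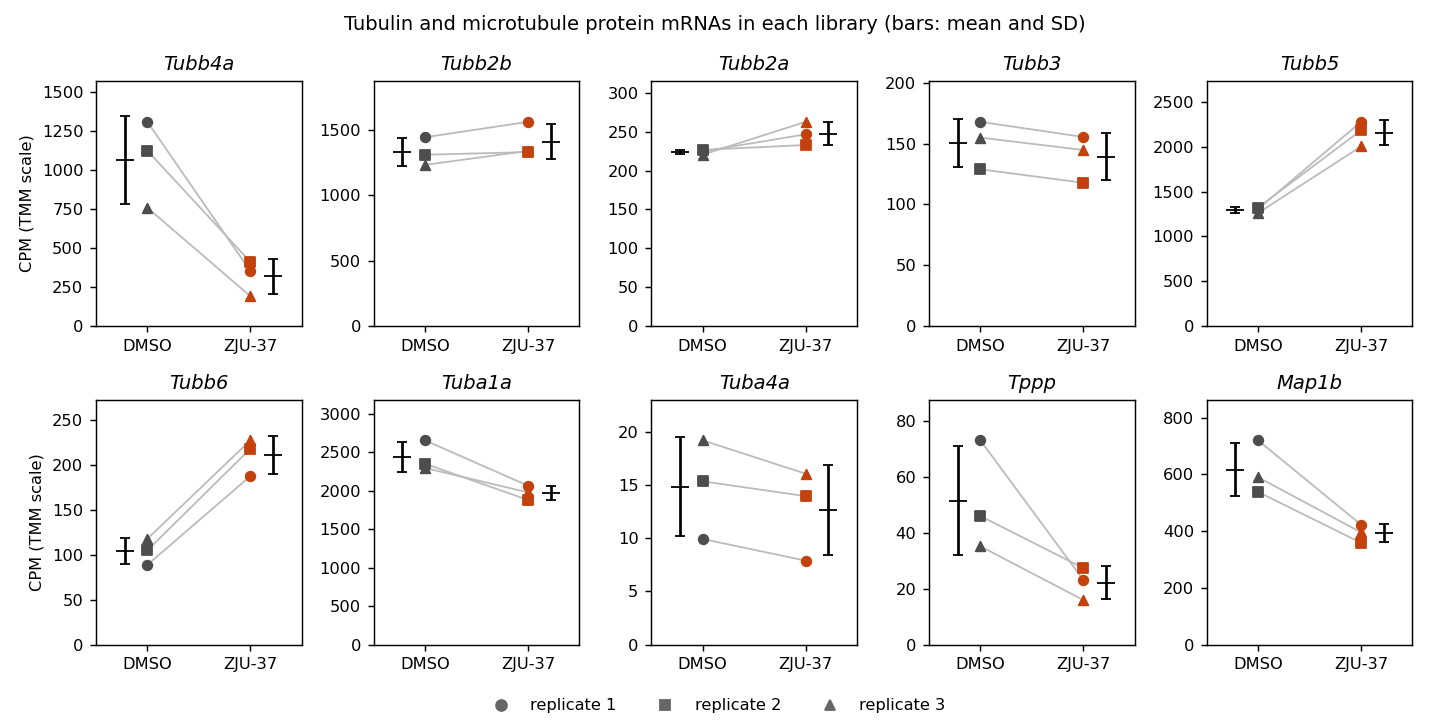
CPM on the TMM scale (y axes, from 0) of the 10 genes in the 3 DMSO and 3 ZJU-37 libraries. Grey lines join libraries of the same replicate number, and black marks give the mean and SD of each group. Tubb4a, Tppp, Map1b and Tuba1a lie lower and Tubb5, Tubb6 and Tubb2a lie higher in all 3 ZJU-37 libraries than in any DMSO library, while Tubb2b, Tubb3 and Tuba4a overlap.

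The library totals ran from 13935865 to 24097927 counts, at which 3 counts correspond to between 0.124 and 0.215 CPM, counting error only. All 8 OPC marker genes were detected, with a summed level of 1392 to 1609 FPKM in DMSO and 1185 to 1636 FPKM in ZJU-37, the authors' unit per length and depth. The sum joins changes in both directions. Pdgfra, Cspg4, Olig1 and Ptprz1 of this list were higher with ZJU-37 (log2 fold changes 1.10, 1.04, 0.64 and 0.54). Gpr17, Sox10 and Nkx2-2 were lower (-3.43, -0.61 and -1.74), and each of these genes was called by edgeR. Markers of microglia (403 to 924 FPKM in sum), astrocytes (278 to 489 FPKM) and neurons (94.8 to 167 FPKM) were present in every library, and no marker of any list was at 0 in all of them. Of the 8 astrocyte markers 1, Aldoc, was lower (log2 fold change -0.86). With the replicate block 4 of them were lower (Gfap, Aqp4, Gja1 and Aldoc) and 1, S100b, was higher. Of the 8 microglia markers edgeR called 0, 0 at an unadjusted p under 0.05 and 1 with the replicate block. Of all tested genes edgeR called 15.0% (9.43% higher and 5.58% lower), and 32.1% with the block (16.2% higher and 15.9% lower).

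In level per length (FPKM) the members spanned more than 2 orders of magnitude. In the DMSO libraries Tuba1a was highest at 1499 ± 114 FPKM (SD, n = 3), followed by Tubb2b (733 ± 57.4), Tubb5 (598 ± 16.3) and Tubb4a (492 ± 129). Tubb3 (84.7 ± 10.8 FPKM), Tubb2a (82.5 ± 1.43), Tubb6 (59.0 ± 8.33), Map1b (51.6 ± 7.62) and Tppp (40.6 ± 15.3) formed a middle range, and Tuba4a was lowest at 10.2 ± 3.21 FPKM. The DMSO ranges overlapped between the neighbours Tubb5 and Tubb4a, Tubb3 and Tubb2a, Tubb6 and Map1b, and Map1b and Tppp, so these pairs had no clear order. In the ZJU-37 libraries the order of the leading genes was Tuba1a (1214 ± 68.8 FPKM), Tubb5 (993 ± 73.6), Tubb2b (778 ± 81.2) and Tubb4a (147 ± 53.0), followed by Tubb6 (120 ± 10.6). The ZJU-37 ranges of Tubb4a and Tubb6 overlapped, as did those of Tubb2a and Tubb3, so these pairs had no clear order there.

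Tubb4a encodes the beta-tubulin isotype that is abundant in myelinating oligodendrocytes and whose mutation in people causes a leukodystrophy. Its level in DMSO replicates 1, 2 and 3 was 1307, 1122 and 757 CPM, and the ZJU-37 libraries, in the same order, had 352, 411 and 191 CPM. The highest ZJU-37 library thus lay below the lowest DMSO library, and replicate 3 was the lowest of its group in both. The group means were 1062 ± 280 CPM and 318 ± 114 CPM (SD, n = 3), for which edgeR estimated a log2 ratio of -1.74 ± 0.33 (SE) at an adjusted p of 0.0156, or 0.000277 under the replicate block. The log2 differences within pairs 1, 2 and 3 were -1.89, -1.45 and -1.99. Without DMSO replicate 1 or DMSO replicate 2 the adjusted p-value was 0.0508 or 0.0583 in edgeR. With all libraries and no filter on low counts it was 0.0547.

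The summed level of the oligodendrocyte markers differed between the groups as well. It was between 3809 and 7466 FPKM in the DMSO libraries and between 1599 and 3279 FPKM in the ZJU-37 libraries, and replicate 3 was the lowest of its group here too. Of the 10 markers 2 passed as lower (5 with the replicate block, edgeR) and 0 were higher. Over all tested genes 5.58% were lower (15.9% with the block) and 9.43% were higher (16.2%). The called markers were Myrf, the transcription factor of myelin genes (log2 fold change -1.69), and Cnp, a myelin enzyme (-1.36). The part of the marker levels in the results for Tubb4a, Tppp and Sirt2 was not tested, and in these bulk libraries fewer cells of a type and less RNA per cell cannot be told apart.

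The 250 bases before the start of transcription of Tubb4a are shown here with those of Tubb5, the beta-tubulin gene of similar level in DMSO that moved the other way. The sequences are from RefSeq, build GRCr8, at chr9:2012282-2012531 (minus strand) and chr20:2917327-2917576 (plus strand), each written 5′ to 3′ on the strand of its gene. Capitals mark GC boxes (GGGCGG) and CCAAT boxes (CCAAT), searched on both strands. Both motifs are common in promoters, and matches are descriptions of the letters only.
Tubb4a: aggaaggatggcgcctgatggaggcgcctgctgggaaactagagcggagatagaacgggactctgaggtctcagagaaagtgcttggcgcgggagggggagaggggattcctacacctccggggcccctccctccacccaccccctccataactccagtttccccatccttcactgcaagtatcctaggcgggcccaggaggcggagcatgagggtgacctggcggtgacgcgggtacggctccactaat
Tubb5: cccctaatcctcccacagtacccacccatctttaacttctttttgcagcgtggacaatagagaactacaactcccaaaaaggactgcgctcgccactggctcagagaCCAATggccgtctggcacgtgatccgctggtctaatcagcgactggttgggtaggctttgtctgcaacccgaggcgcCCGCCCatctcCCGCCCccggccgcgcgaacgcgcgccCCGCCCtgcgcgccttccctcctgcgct
Neither motif was found in this window of Tubb4a, while that of Tubb5 held 3 GC boxes and 1 CCAAT box. Over the 10 members, all matched in the RefSeq table, 7 held a GC box and 5 a CCAAT box, against 30.5% and 34.0% of all 33469 promoter windows of the same length. Tubb4a and Map1b held neither.

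Tubb5 encodes a beta-tubulin that is used by most cells, dividing ones included. Replicates 1, 2 and 3 gave 1305, 1321 and 1261 CPM under DMSO, and 2278, 2184 and 2003 CPM under ZJU-37. The DMSO libraries were nearly level and all ZJU-37 libraries were higher. The means of 1296 ± 31.5 CPM and 2155 ± 140 CPM (SD, n = 3) gave a log2 ratio of 0.73 ± 0.08 (SE) at an adjusted p of 0.00145 in edgeR.

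Tubb6, which encodes a divergent but widely expressed beta-tubulin, had the largest increase of the 10. By replicate number, Tubb6 had 88.8, 105 and 118 CPM with DMSO against 188, 218 and 228 CPM with ZJU-37. Replicate 1 was the lowest of its group in both, and the groups lay far apart. The log2 ratio was 1.02 ± 0.12 (SE) at an adjusted p of 0.00227 in edgeR, and the pairs differed by 1.08, 1.06 and 0.95 on the log2 scale.

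The neural beta-tubulin genes Tubb2b, Tubb2a and Tubb3 did not pass the test. Tubb2b, an isotype of the developing brain, had 1442, 1308 and 1231 CPM by replicate number with DMSO and 1559, 1328 and 1337 CPM with ZJU-37. Its groups overlapped, with a log2 ratio of 0.09 ± 0.10 (SE) at an adjusted p of 0.634 in edgeR. Its neighbour Tubb2a, 10.3 kb away on chromosome 17 in the coordinates of the count table (build not given in the sources used here), had 225, 227 and 220 CPM in DMSO and 247, 233 and 263 CPM in ZJU-37. All 3 ZJU-37 libraries of Tubb2a were above the DMSO libraries by a small margin, a log2 ratio of 0.14 ± 0.07 (SE) at an adjusted p of 0.205 in edgeR. The FPKM ratio of Tubb2b to Tubb2a was between 8.37 and 9.62 in DMSO and between 7.64 and 9.48 in ZJU-37. These genes are near-identical copies, and how reads that match both were counted is not given in the sources used here, so their separate levels are uncertain.

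Tubb3 encodes the beta-tubulin used as a marker of young neurons. The DMSO libraries held 168, 129 and 155 CPM of Tubb3 (replicates 1, 2 and 3), against 155, 118 and 145 CPM for ZJU-37. Replicate 2 was the lowest of both groups, and the spread between replicates exceeded the difference between groups (log2 ratio -0.11 ± 0.13 SE, edgeR adjusted p = 0.651). Of the 12 neuron markers 1, Elavl4, was higher at an adjusted p-value under 0.05 in edgeR (log2 fold change 1.32) and 0 were lower (1 higher and 4 lower with the block). Over all tested genes 9.43% were higher (16.2% with the block) and 5.58% were lower (15.9%). The summed level of the neuron markers was lowest in replicate 2 of both groups as well, at 107 FPKM in DMSO and 94.8 FPKM in ZJU-37. The part of these marker levels in the Tubb3 values was not tested.

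**Figure D2:**
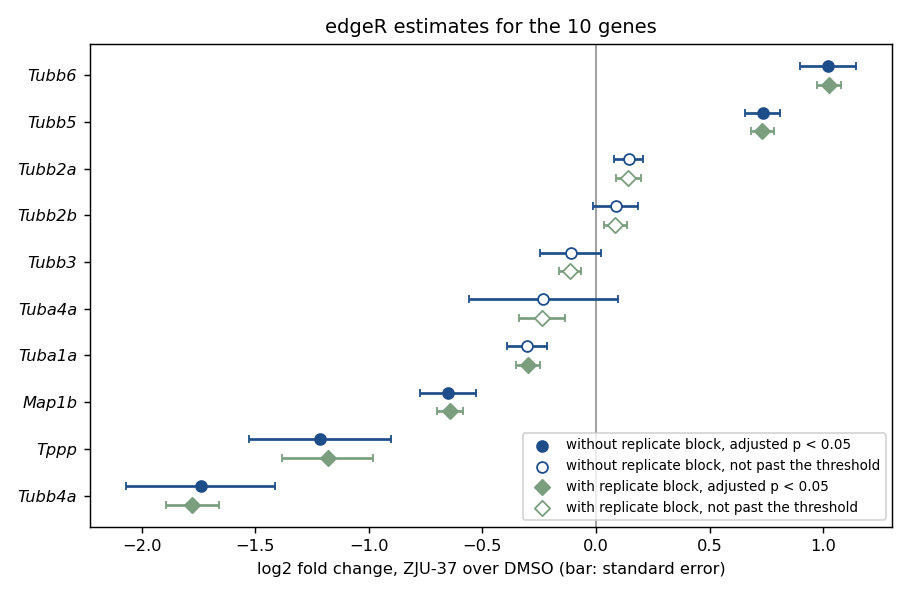
log2 fold change of ZJU-37 over DMSO (x axis) for each of the 10 genes, with its standard error as a bar, from edgeR without the replicate block (circles) and with it (diamonds). Filled symbols have an adjusted p-value under 0.05. The estimates run from -1.74 for Tubb4a to 1.02 for Tubb6, and Tuba1a is the gene whose symbol fills with the block.

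Tuba1a, the main alpha-tubulin gene of the developing nervous system, was lower with ZJU-37 by a small amount that did not pass edgeR's test without the replicate block. By replicate number, Tuba1a reached 2657, 2353 and 2298 CPM with the solvent and 2067, 1881 and 1980 CPM with the inhibitor. The groups did not overlap. The log2 ratio in edgeR was -0.30 ± 0.09 (SE) at an adjusted p of 0.0666, or 0.00187 under the block. DESeq2 gave an adjusted p-value of 0.0149 without the block.

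Its neighbour Tuba1b, a widely used alpha-tubulin gene and not one of the 10, moved in the other direction. Tuba1b lies 19.6 kb from Tuba1a on chromosome 7 in the coordinates of the count table. By replicate number, its DMSO values were 813, 816 and 767 CPM and its ZJU-37 values 1273, 1191 and 1199 CPM, a log2 ratio of 0.61 ± 0.07 (SE) at an adjusted p of 0.00179 in edgeR. The FPKM ratio of Tuba1a to Tuba1b lay between 2.87 and 3.25 in the DMSO libraries and between 1.57 and 1.64 in the ZJU-37 libraries, ranges that did not overlap. As for Tubb2a and Tubb2b, how reads matching both copies were counted is not given in the sources used here, so the separate levels, ratio and shares of Tuba1a and Tuba1b are uncertain. Both promoter windows are given because these adjacent genes for near-identical proteins responded differently, from RefSeq (GRCr8) at chr7:131995820-131996069 (minus strand) and chr7:131972588-131972837 (minus strand), with GC boxes and CCAAT boxes in capitals as above.
Tuba1a: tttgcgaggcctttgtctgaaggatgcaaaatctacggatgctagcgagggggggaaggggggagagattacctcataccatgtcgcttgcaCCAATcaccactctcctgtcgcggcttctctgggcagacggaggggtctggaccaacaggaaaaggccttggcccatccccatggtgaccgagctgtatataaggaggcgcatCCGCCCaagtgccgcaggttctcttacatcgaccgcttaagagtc
Tuba1b: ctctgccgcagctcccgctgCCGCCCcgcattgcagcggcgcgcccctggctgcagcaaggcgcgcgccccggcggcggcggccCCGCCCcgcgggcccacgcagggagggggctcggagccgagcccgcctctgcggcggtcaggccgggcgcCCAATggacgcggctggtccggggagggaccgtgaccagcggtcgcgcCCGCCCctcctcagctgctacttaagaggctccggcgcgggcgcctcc
The Tuba1a window held 1 GC box and 1 CCAAT box and was 56.8% G and C, and the Tuba1b window held 3 GC boxes and 1 CCAAT box and was 80.4% G and C.

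Tuba4a, whose product lacks the tyrosine that other alpha-tubulins encode at their end, was the lowest of the 10 in level. Replicates 1, 2 and 3 of DMSO had 9.93, 15.4 and 19.2 CPM of Tuba4a, and those of ZJU-37 had 7.89, 14.0 and 16.1 CPM. Replicate 1 was lowest in both groups and the groups overlapped (log2 ratio -0.23 ± 0.33 SE, edgeR adjusted p = 0.703).

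Summed over genes, the beta-tubulin mRNA pool differed in make-up between the groups. The 8 beta-tubulin genes of the table summed to 2378, 2246 and 2002 FPKM in DMSO and, in the same replicate order, to 2635, 2433 and 2289 FPKM in ZJU-37. The ranges overlapped, and within each of the 3 pairs the ZJU-37 library had the higher sum. Tubb4a made up 25.4%, 23.3% and 17.5% of this pool in DMSO replicates 1, 2 and 3 and 6.26%, 7.77% and 3.83% in ZJU-37 replicates 1, 2 and 3. Tubb5 made up 27.2 ± 1.89% in DMSO and 40.5 ± 0.555% in ZJU-37 (SD, n = 3), and Tubb2b made up 33.2 ± 0.790% and 31.7 ± 1.58%. Tubb5 and Tubb4a were thus at a similar level in DMSO, with an FPKM ratio between 0.994 and 1.66, whereas the ratio was between 5.29 and 10.5 in ZJU-37. Because the shares of a library sum to a whole, a lower share of one gene raises the others.

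The alpha-tubulin pool of 8 genes consisted almost wholly of Tuba1a and Tuba1b. By replicate number its sum was 2144, 1982 and 1910 FPKM in DMSO and 2095, 1900 and 1964 FPKM in ZJU-37, lower in pairs 1 and 2 and higher in pair 3. Tuba1a made up 74.4 ± 1.32% in DMSO and 61.1 ± 0.541% in ZJU-37, and Tuba1b made up 24.6 ± 1.14% and 38.0 ± 0.533% (SD, n = 3). A further 2 entries described as alpha-1C-like tubulin genes, which would add between 0.620% and 0.759% to the pool, were left out of it. The shares are descriptions, and no test was made on them.

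**Figure D3:**
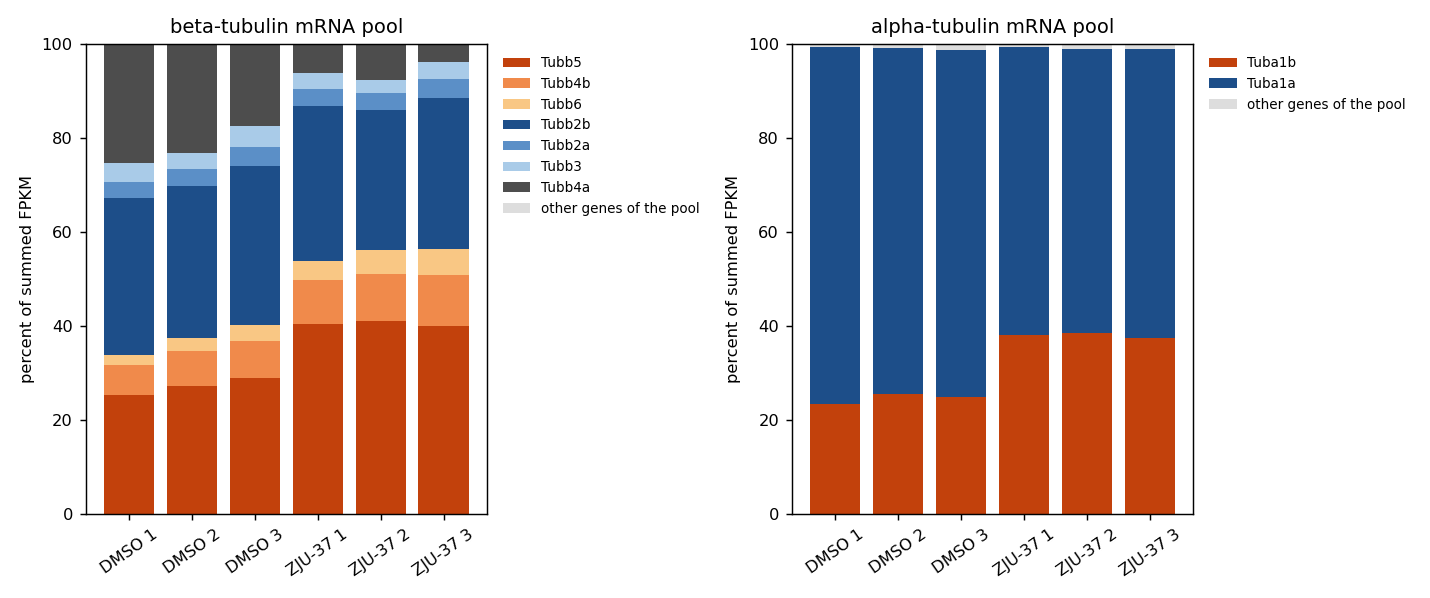
Share of each gene in the summed FPKM of the beta-tubulin genes (left) and alpha-tubulin genes (right), in percent, for each library. The Tubb4a segment falls from between 17.5% and 25.4% in DMSO to between 3.83% and 7.77% in ZJU-37, and the Tubb5 and Tuba1b segments are larger in every ZJU-37 library.

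Tppp encodes the polymerization-promoting protein that nucleates microtubules in oligodendrocyte processes. Its CPM values by replicate number were 73.0, 46.0 and 35.1 for DMSO and 23.1, 27.4 and 15.9 for ZJU-37. DMSO replicate 1 stood well above the other two DMSO libraries, and the groups did not overlap. The means of 51.4 ± 19.5 CPM and 22.1 ± 5.78 CPM (SD, n = 3) corresponded in edgeR to a log2 ratio of -1.21 ± 0.31 (SE) at an adjusted p of 0.0483, or 0.0213 under the replicate block. This call lay close to the threshold. Leaving out DMSO replicate 3 kept it, whereas leaving out any other single library ended it, with an edgeR adjusted p-value of up to 0.130 without ZJU-37 replicate 3. It also ended in edgeR with no filter on low counts (adjusted p = 0.122) and in limma on log2(FPKM + 1) (adjusted p = 0.0535).

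The window before the start of Tppp, at chr1:31109704-31109953 (minus strand) of GRCr8 from RefSeq, is shown to set it beside that of Tubb4a, the other member that fell more than 2-fold, with the same marks.
Tppp: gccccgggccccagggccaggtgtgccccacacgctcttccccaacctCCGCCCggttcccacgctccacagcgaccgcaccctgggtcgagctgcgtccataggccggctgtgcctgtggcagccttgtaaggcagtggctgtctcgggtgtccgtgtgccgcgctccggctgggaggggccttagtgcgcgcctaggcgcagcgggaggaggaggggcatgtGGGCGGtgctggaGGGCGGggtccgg
It held 3 GC boxes and 0 CCAAT boxes, and was 73.2% G and C against 62.8% for Tubb4a.

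Map1b encodes a microtubule-binding protein of growing processes. With DMSO, replicates 1, 2 and 3 contained 720, 538 and 590 CPM of Map1b, and with ZJU-37 423, 359 and 396 CPM. Replicate 2 was the lowest of both groups, and all ZJU-37 libraries were below the DMSO libraries. The means of 616 ± 93.6 CPM and 392 ± 32.1 CPM (SD, n = 3) gave a log2 ratio of -0.65 ± 0.12 (SE) at an adjusted p of 0.0145 in edgeR. Without ZJU-37 replicate 3 the adjusted p-value was 0.0591 in edgeR. Under the replicate block, with all libraries, it was 2.32e-05.

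The other microtubule genes were read from 6 lists by function, which did not contain the 10 members. These lists were also chosen with earlier results of these data known, so their counts are descriptions. Of 134 listed genes 119 were tested, and 35 of these (29.4%, against 15.0% of all tested genes) passed in edgeR, 23 higher and 12 lower with ZJU-37. With the replicate block 53 passed, 30 higher and 23 lower, where 32.1% of all tested genes passed (16.2% higher and 15.9% lower). The count was 19 without DMSO replicate 2, 22 without DMSO replicate 3 and 23 without ZJU-37 replicate 3. In the same order these fits called 1306, 1531 and 1351 genes in all, against 2201 with all libraries. The median log2 fold change over the 119 genes was 0.03.

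Among the other tubulin genes 4 of 8 tested were higher and 0 were lower. They were Tube1 (log2 fold change 0.79), which encodes the epsilon-tubulin of centrioles, the broadly used beta-tubulin gene Tubb4b (0.63), Tuba1b (0.61), and Tubg1 (0.47), whose gamma-tubulin nucleates microtubules. Tubb4b had 256, 272 and 259 CPM in DMSO and 405, 402 and 413 CPM in ZJU-37. Tuba1c (-0.15) and Tubd1 (0.32) did not pass. Of the 23 genes for tubulin folding and autoregulation, 1 was higher and 0 were lower. This gene was Tcp1, a subunit of the chaperonin that folds tubulin (log2 fold change 0.36, adjusted p = 0.00473, edgeR). The chaperonin subunits Cct5 and Cct7 had log2 fold changes of 0.03 and 0.05 and did not pass. With the block 2 of these genes were higher and 2 were lower.

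Of 18 tested genes for enzymes that modify tubulin, 2 were higher and 3 were lower (5 and 4 with the block). Sirt2, an alpha-tubulin deacetylase that is abundant in oligodendrocytes, had 2191, 1775 and 1468 CPM in DMSO and 484, 585 and 392 CPM in ZJU-37. Its groups lay far apart, with a log2 ratio of -1.89 ± 0.20 (SE) at an adjusted p of 0.00162 in edgeR. Atat1, which encodes the opposing acetyltransferase, fell by 0.46 on the log2 scale (adjusted p = 0.0376, edgeR). Ttll4, a glutamylase gene, rose by 0.45 and Ttl, whose product restores the end tyrosine of alpha-tubulin, rose by 0.40. Vash1 (-0.05) and Ttll12 (0.18) did not pass.

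Among 35 tested genes for microtubule-associated proteins, 6 were higher and 6 were lower (8 and 10 with the block). Map6d1, whose product stabilizes microtubules, had the largest decrease of this list (log2 fold change -1.61, adjusted p = 0.00931, edgeR). Map1a, the relative of Map1b that is linked to mature processes, had 814, 611 and 550 CPM in DMSO and 397, 368 and 344 CPM in ZJU-37, and fell by 0.83 on the log2 scale (adjusted p = 0.0128, edgeR). Mid2 and Mid1, genes of microtubule-bound ubiquitin ligases, rose by 0.97 and 0.93. Map1lc3a (-0.11) and Map7d1 (-0.02) did not pass.

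Of the 4 stathmin genes, whose products bind free tubulin dimers, 2 were higher and 0 were lower (2 and 2 with the block). Stmn1 had 342, 302 and 312 CPM in DMSO and 663, 559 and 559 CPM in ZJU-37, a log2 fold change of 0.90 (adjusted p = 0.00142, edgeR). Stmn3 rose by 0.60, while Stmn2 (-0.19, adjusted p = 0.650) and Stmn4 (-0.80, adjusted p = 0.112) did not pass in edgeR without the block.

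Among 31 tested genes for microtubule ends, nucleation and severing, 8 were higher and 3 were lower (9 and 5 with the block). Cdk5rap2, which anchors nucleating complexes at the centrosome, had the largest increase (log2 fold change 1.15, adjusted p = 0.000398, edgeR), with a mean level of 73.3 ± 3.00 CPM in DMSO and of 162 ± 14.1 CPM in ZJU-37 (SD, n = 3). Fignl1, of the fidgetin family, rose by 0.80 and Nedd1, a targeting factor of gamma-tubulin, rose by 0.56. Slain1, a promoter of plus-end growth, had a log2 fold change of -0.89. The plus-end genes Mapre1 (0.00) and Clasp2 (-0.25) did not pass.

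**Figure D4:**
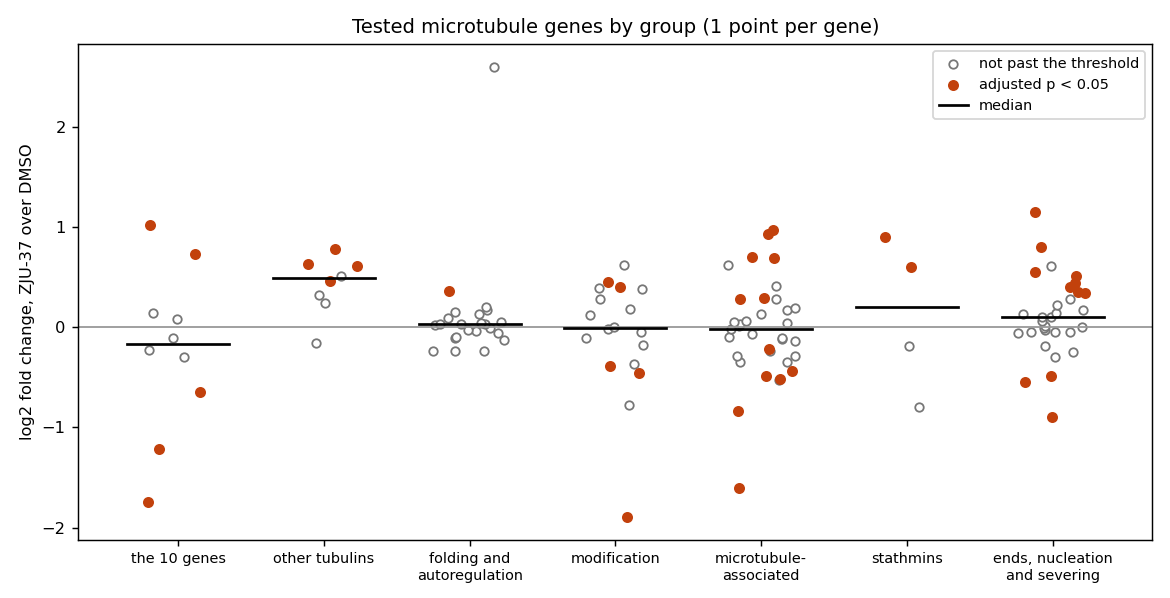
log2 fold change of ZJU-37 over DMSO (y axis) for the 10 genes and for the tested genes of the 6 other lists, with 1 point per gene. Filled points have an adjusted p-value under 0.05 in edgeR and black lines give the median of each list. The other tubulin genes have a median of 0.49 with no called gene below 0. The folding genes lie mostly near 0, with 1 called point at 0.36, Tcp1, and 1 uncalled point at 2.60, Tbcb.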

How the data were processed

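RNA-seq of 6 rat OPC libraries (3 DMSO, 3 ZJU-37) was analysed from 1 deposited table. Its raw counts per gene were made by the authors with featureCounts (version 1.5.0) after HISAT2 (2.0.5), and StringTie (1.3.3b) is also named in the submitters' processing notes. The genome build and the handling of strand and multi-mapped reads are not given in the sources used here. The deposited FPKM values are the counts scaled by length and by a total of 0.979 to 1.03 times the summed counts. The authors' group means, fold changes and p-values were not used.

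Counts were filtered with filterByExpr, normalized by TMM and tested with edgeR 4.0.16 (glmQLFit robust, glmQLFTest) in R 4.3.3 over all genes, with Benjamini-Hochberg adjustment and a threshold of 0.05. Standard errors are the log2 fold change divided by the root of F. Groups and replicate numbers came from the sample titles. Deviations of same-numbered libraries correlated with r between 0.31 and 0.39 across genes (other pairings -0.27 to -0.01), so the numbers were taken to pair the libraries. Calls came from the test without the block unless the block is named, and the fits with 1 library left out had no block. DESeq2 1.42.0, limma 3.58.1 on log2(FPKM + 1), other normalizations and filters, the replicate block and leaving out each library were alternatives. The script was tested on simulated data. The members and lists were chosen with earlier results of these data known. Named were the 10 members, per list up to 4 called genes of largest fold change and 2 uncalled genes of highest FPKM, and called markers. Promoter windows came from RefSeq (GRCr8).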

Additional observations from a re-analysis of the deposited data

How the results depend on the processing

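The directions of Tubb4a, Tppp, Map1b, Tubb5, Tubb6, Tubb2a, Tubb2b and Tuba1a were the same in all 13 alternatives run, and Tubb5 and Tubb6 stayed under the threshold in each of them (log2 fold changes of 0.71 to 0.81 and 0.92 to 1.12). The sign turned for 2 uncalled members, to 0.026 for Tubb3 without ZJU-37 replicate 2 (range -0.21 to 0.026 with 1 library left out) and to 0.026 for Tuba4a without ZJU-37 replicate 1 (range -0.45 to 0.026). The 5 called members became 3 with no filter on low counts, where Tubb4a had an adjusted p-value of 0.0547 and Tppp one of 0.122 in edgeR, and ran from 3 to 5 when 1 library was left out. The count was 3 without DMSO replicate 1, without DMSO replicate 2 and without ZJU-37 replicate 3. Tppp had an adjusted p-value of 0.0535 with limma on log2(FPKM + 1). With the replicate block the 2201 called genes of the whole table became 4705 and the 35 called genes of the wider lists became 53, and Tuba1a joined the called members, with no other change of call among the 10. Leaving out 1 library gave between 1306 and 1927 called genes in all and between 19 and 32 in the wider lists. On raw counts in place of FPKM, Tubb5 made up 29.4% (DMSO) and 44.1% (ZJU-37) of the beta-tubulin pool and Tubb2b made up 30.0% and 28.8%. The shares of Tubb4a, Tuba1a and Tuba1b moved by less than 1 SD. Leaving out a library was added for the shares after the data had been seen. With 3 libraries per group it cannot move a mean by 1 SD, so only ranges are given. Tubb4a then made up 20.4% to 24.3% (DMSO) and 5.05% to 7.02% (ZJU-37). Tubb5 made up 26.3% to 28.2% and 40.2% to 40.7%, and Tuba1a 73.68% to 74.92% and 60.95% to 61.44%. At this depth Tubal3 had 0 counts in all libraries and Tuba3a, Tuba3b and Tubb1 had at most 2 in any, and no difference could be read for them.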

Other observations

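Some entries of the microtubule lists differed sharply between single libraries, and they are named here because of their values. Tbcb, which encodes a tubulin folding cofactor, had 13, 29 and 29 counts in DMSO replicates 1, 2 and 3 and 421, 28 and 36 counts in ZJU-37 replicates 1, 2 and 3. A second entry of the table that is described as the same cofactor, LOC103690005, had 19, 17 and 213 counts in DMSO and 11, 18 and 179 counts in ZJU-37, so that it was high in replicate 3 of both groups. Clip3, a gene of the linker protein family of microtubule plus ends, had 38, 46 and 176 counts in DMSO and 361, 52 and 22 counts in ZJU-37. Neither Tbcb (adjusted p = 0.215) nor Clip3 (adjusted p = 0.768) passed the edgeR test between the groups.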
